A study of Mus musculus with 4 samples.

Results

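The 38 genes described here encode proteins that act in G2 phase and mitosis. They were chosen by name from a list drawn up with earlier results of these data known, by a rule that uses no measured value, and all 38 were found among the 27998 gene rows of the 2 count tables of this mouse single-cell RNA-seq series. Levels are given as CPM, the UMIs (unique molecular identifiers, 1 per captured transcript) of a gene in a class of cells on the usual counts-per-million scale. Each cell was also drawn down at random to 5000 UMIs, so that UMIs per cell could be read at equal depth. The study addressed embryonic pancreas at E15.5 and the loss of Ogt, which encodes O-GlcNAc transferase, a nutrient-sensitive modifier of many proteins.

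The control animals were OGTflox/flox, labelled WT, and per the series design their cells were picked by FACS for E-cadherin. The knockout animals were PdxCre;OGTflox/flox;CAG GFP, in which Pdx-driven Cre acts in the pancreatic epithelium, and their cells were picked for endogenous GFP. The sample labels name FACS for GFP for both genotypes, and which statement holds for the control could not be settled. Both groups carried the floxed Ogt allele, and genotype and any difference in sorting cannot be told apart in any comparison of the libraries. The labels describe the 2 samples of each genotype as repeat sequencing runs, so each genotype was 1 library with no replicate. No test was possible, and every interval below is at 95% and reflects counting error alone, leaving out differences among cells and animals. How many animals were pooled is not given in the sources used here.

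Entry into mitosis is driven by Cdk1 bound to B-type cyclins, and exit by the anaphase-promoting complex, a ubiquitin ligase that marks those cyclins and other proteins for destruction. Transcripts of the proteins that build the spindle and kinetochores, condense chromosomes and split the cell rise together late in the cell cycle. Their promoters are known for 2 short elements, the cell cycle homology region (CHR) and CCAAT boxes, through which the MuvB complex, FoxM1, B-Myb and NF-Y act. In the fetal pancreas acinar and duct-forming progenitors divide, hormone-producing cells largely leave the cycle, and tissue macrophages can renew by division in place.

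Promoters were looked at because the members are known to be transcribed together. RefSeq listed a promoter for 35 of the 38 genes (Aurkb, Tpx2 and Smc4 are named only), as 300 bases from 250 before the start of the transcript, build GRCm38.p6, and the first listed start of each gene was used. The CHR letters TTTGAA, sought on both strands, stood in 25 of the 35 windows (71.4%) against 18.1% of all 27025 promoters of that length. The letters CCAAT, sought on both strands with overlapping matches counted, stood in 28 of 35 (80%) against 37.9%, and at least 2 such matches in 24 of 35 (68.6%) against 12.2%. Both elements stood in 22 of 35 (62.9%) against 7.12%. Letters that match are a description and not a site of binding. The windows below show the 150 bases before the first listed start, 5′ to 3′ on the gene's strand, for the member with the most UMIs in 7 role groups whose window holds no annotated exon. This rule was settled after values had been seen, and no member of the anaphase-promoting group had such a window. Capitals mark a match to either motif on either strand.
Cks2, chr13:51645082-51645231, plus strand: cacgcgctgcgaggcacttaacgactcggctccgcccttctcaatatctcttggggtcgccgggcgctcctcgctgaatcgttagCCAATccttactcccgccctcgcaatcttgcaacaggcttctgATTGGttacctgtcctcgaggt
Birc5, chr11:117849087-117849236, plus strand: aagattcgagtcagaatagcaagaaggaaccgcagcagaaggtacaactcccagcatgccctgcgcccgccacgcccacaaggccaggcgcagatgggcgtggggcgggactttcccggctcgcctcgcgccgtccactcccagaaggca
Cenpf, chr1:189688087-189688236, minus strand: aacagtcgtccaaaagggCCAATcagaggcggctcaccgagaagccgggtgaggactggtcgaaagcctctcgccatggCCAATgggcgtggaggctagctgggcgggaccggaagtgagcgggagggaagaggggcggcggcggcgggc
Tubb4b, chr2:25224703-25224852, minus strand: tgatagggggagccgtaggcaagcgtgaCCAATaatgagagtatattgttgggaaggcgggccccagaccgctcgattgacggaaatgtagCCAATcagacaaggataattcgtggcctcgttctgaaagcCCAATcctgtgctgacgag
Kif23, chr9:61946800-61946949, minus strand: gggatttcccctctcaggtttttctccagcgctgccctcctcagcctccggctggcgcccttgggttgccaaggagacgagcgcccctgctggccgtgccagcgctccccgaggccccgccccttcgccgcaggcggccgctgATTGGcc
Hmgb2, chr8:57511693-57511842, plus strand: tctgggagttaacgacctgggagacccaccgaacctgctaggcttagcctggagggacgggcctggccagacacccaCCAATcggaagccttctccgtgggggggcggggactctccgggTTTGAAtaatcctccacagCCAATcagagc
Tmpo, chr10:91171620-91171769, minus strand: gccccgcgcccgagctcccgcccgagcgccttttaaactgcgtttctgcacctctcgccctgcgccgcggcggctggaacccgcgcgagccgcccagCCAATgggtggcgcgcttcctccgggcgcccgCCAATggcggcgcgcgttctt
The Hmgb2 window alone among the 7 printed holds TTTGAA, beside 2 CCAAT matches. Tubb4b holds 3 CCAAT matches, Cks2, Cenpf and Tmpo 2 each and Kif23 1, while the printed Birc5 window holds none of either. The printed stretch is only part of the 300 bases counted above. Over those 300 bases Hmgb2 held 2 matches to TTTGAA on either strand, Cenpf, Tubb4b and Kif23 1 each, and Cks2, Birc5 and Tmpo 0. The Tmpo start used lies within the annotated gene.

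The control library held 941 barcodes with 11973979 UMIs and the knockout library 617 with 11064540, with 0 barcodes shared. After filtering and removal of 4 and 9 doublets, 921 and 552 cells remained. Over all classes Ogt measured 61.8 CPM (730 UMIs) in the control and 56.6 CPM (585 UMIs) in the knockout library, and with 3' tags and no statement of which exons were removed this does not check the deletion. Cells were clustered without the members and 276 cell cycle genes in all, so that member levels did not form the classes, and clusters were named from markers by a rule settled after the data had been seen and revised once. Both libraries were labelled as pancreatic epithelium, yet most control cells fell in classes with myeloid markers, and mesenchyme-like and mesothelium-like cells came almost only from the knockout library. The class called MHC class II-high myeloid was led by H2-Aa, H2-Ab1 and Cd74, with the dendritic genes Flt3 at 6.83 CPM, Cd209a at 0.488 and Clec9a at 0, and is not called dendritic. The cluster called Cym-high epithelium scored highest for trunk/ductal markers but was led by Cym, Serpina1b and Serpina1a, so it keeps the name of its leading gene. Control and knockout acinar-like cells fell into different clusters, cluster 12 (49 control and 0 knockout cells) and cluster 7 (1 and 93).

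Summed over all cells the 38 genes stood at nearly the same level in both libraries, 4278 CPM in control and 4258 in knockout. Their level differed strongly between the classes. In control, granulocyte/monocyte cells held 7796 CPM (7659 to 7934, 119 cells), acinar-like cells 5466 (5339 to 5595, 50 cells), Lyve1 macrophage-like cells 3988 (3920 to 4058, 276 cells), trunk/ductal-like cells 3733 (3565 to 3907, 35 cells), C1q macrophage-like cells 3177 (3113 to 3241, 250 cells) and MHC class II-high myeloid cells 3018 (2940 to 3097, 159 cells). In knockout, trunk/ductal-like cells held 5616 (5458 to 5776, 43 cells), mesothelium-like cells 4715 (4584 to 4849, 65 cells), acinar-like cells 4486 (4409 to 4563, 93 cells), Cym-high epithelium 4032 (3939 to 4127, 88 cells), mesenchyme-like cells 3347 (3262 to 3435, 142 cells) and endocrine-like cells 1755 (1659 to 1855, 42 cells). The 20 control endocrine-like cells held 1367 (1198 to 1554). Of knockout classes with fewer than 30 cells, lymphoid-like cells held 6194 (5962 to 6433, 23 cells) and MHC class II-high myeloid cells 5677 (5306 to 6067, 10 cells). Knockout granulocyte/monocyte cells held 5608 (5370 to 5853, 23 cells) and mast cell/basophil-like cells 4399 (4103 to 4710, 13 cells). With these small knockout classes left out, acinar-like control and trunk/ductal-like knockout were neighbours in level whose intervals overlap. The same held for Lyve1 macrophage-like cells and Cym-high epithelium. The other neighbours were separated beyond counting error. Hmgb2 gave a large part of these sums, 2294 of the 7796 CPM in granulocyte/monocyte cells.

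Over the 12 classes with at least 30 cells in their library, granulocyte/monocyte cells held the highest level for 25 of the 38 genes, knockout trunk/ductal-like cells for 7, mesothelium-like cells for 3, control acinar-like cells for 2 and Cym-high epithelium for 1. Knockout endocrine-like cells held the lowest level for 31 of 38. The same counts were not made over all genes, so how far they are particular to the members is not known. The place of the immune classes depended on the clustering: with cell cycle genes kept in it, the cells named granulocyte/monocyte summed to 1938 CPM and those named MHC class II-high myeloid to 10160. The map of levels by class shows both extremes as bright and dark columns.

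**Figure D1:**
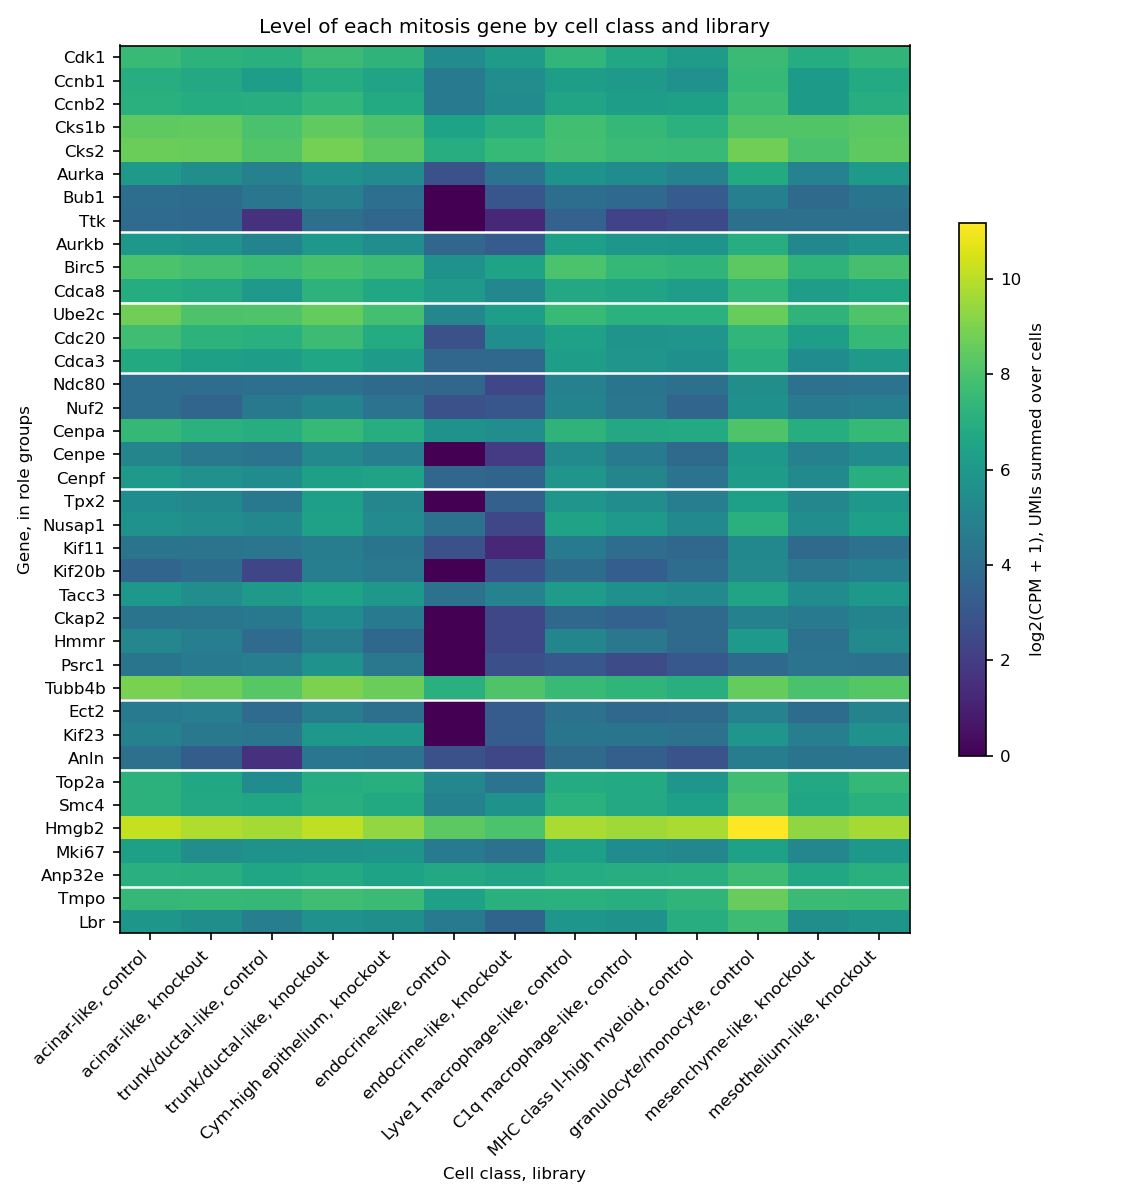
Level of each of the 38 genes (rows, grouped by role) in 13 class and library combinations (columns), as log2(CPM + 1) of UMIs summed over cells. The granulocyte/monocyte column of the control library is the brightest, with Hmgb2 at 2294 CPM, and both endocrine-like columns are the darkest.

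Kinases and their partners open the list. Cdk1, the kinase that starts mitosis, ranged from 69.6 CPM in MHC class II-high myeloid cells to 196 in knockout trunk/ductal-like cells (median 151 over the 12 classes), a 2.82-fold span. Control values for Cdk1 were 194 in granulocyte/monocyte, 186 in acinar-like, 161 in Lyve1 macrophage-like, 133 in trunk/ductal-like and 103 in C1q macrophage-like cells. Knockout values were 156 in mesothelium-like, 154 in Cym-high, 148 in acinar-like, 120 in mesenchyme-like and 70.3 in endocrine-like cells. The level of Cdk1 in endocrine-like cells was thus as low as in MHC class II-high myeloid cells, within counting error. Ccnb1, the cyclin that activates Cdk1, spanned 4.1-fold, from 43.6 in knockout endocrine-like to 179 in granulocyte/monocyte cells, with 124 in control and 106 in knockout acinar-like cells and 72.6 and 120 in trunk/ductal-like cells. Ccnb2, the second B-type cyclin, spanned 5.07-fold between the same 2 classes. Aurka, the kinase that matures centrosomes, ranged from 18.3 in knockout endocrine-like cells to 111 in granulocyte/monocyte cells, with 65.0 and 45.4 in control and knockout acinar-like cells.

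The small Cdk-binding proteins Cks2 and Cks1b gave many UMIs in every class. Cks2 stood at 458 CPM in knockout trunk/ductal-like cells (414 to 505), 429 in granulocyte/monocyte, 397 in control and 374 in knockout acinar-like cells. It stood at 336 in mesothelium-like, 323 in Cym-high, 282 in control trunk/ductal-like and 250 in mesenchyme-like cells, and at 225, 194 and 183 in Lyve1 macrophage-like, C1q macrophage-like and MHC class II-high myeloid cells. Its lowest value was 180 in knockout endocrine-like cells, where 61.9% of 42 cells still showed a Cks2 UMI at 5000 UMIs per cell. Cks1b ranged from 125 in knockout endocrine-like to 344 in knockout trunk/ductal-like cells, with 339 and 343 in control and knockout acinar-like cells. Bub1 and Ttk, kinases of the checkpoint that holds anaphase until chromosomes are attached, were read in few transcripts. Bub1 ranged from 7.03 to 27.9 CPM, and Ttk from 1.41 (1 UMI) in knockout endocrine-like to 16.3 in mesothelium-like cells.

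The chromosomal passenger complex corrects faulty attachments and directs cytokinesis. Its member Birc5 (survivin) stood at 322 CPM in granulocyte/monocyte, 253 in Lyve1 macrophage-like, 252 in control acinar-like and 239 in knockout trunk/ductal-like cells. Birc5 was lower in mesothelium-like (234), knockout acinar-like (226), Cym-high (200), control trunk/ductal-like (192), C1q macrophage-like (171), MHC class II-high myeloid (156), mesenchyme-like (153) and knockout endocrine-like cells (88.6). Cdca8 (borealin) was highest in granulocyte/monocyte cells at 165 and lowest in knockout endocrine-like cells at 36.6, with 64.5 and 149 in control and knockout trunk/ductal-like cells. Aurkb, the kinase of the complex, spanned 14.6-fold, from 8.44 (6 UMIs) to 122.8 CPM between endocrine-like and granulocyte/monocyte cells.

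In the group around the anaphase-promoting complex, Ube2c and Cdc20 peaked in control acinar-like cells. Ube2c, the ubiquitin-conjugating enzyme of the complex, reached 424 CPM there (389 to 461), 375 in granulocyte/monocyte and 371 in knockout trunk/ductal-like cells. Ube2c stood at 271 in mesothelium-like, 268 in control trunk/ductal-like, 267 in knockout acinar-like and 225 in Cym-high cells. It was lower in Lyve1 macrophage-like (189), mesenchyme-like (152), C1q macrophage-like (139), MHC class II-high myeloid (137) and knockout endocrine-like cells (73.1). Cdc20, the activator that presents substrates, followed with 216 in control acinar-like, 201 in knockout trunk/ductal-like, 177 in mesothelium-like, 163 in granulocyte/monocyte, 146 in knockout acinar-like and 135 in control trunk/ductal-like cells. In the macrophage classes Cdc20 stood at 83.4 (Lyve1) and 53.2 (C1q). Cdca3, which takes part in the destruction of the mitotic inhibitor Wee1, ranged from 12.7 to 128.

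Kinetochore genes included some of the most variable members. Cenpa, the histone variant that marks centromeres, ranged from 43.6 CPM in knockout endocrine-like to 269 in granulocyte/monocyte cells, with 170 and 138 in control and knockout acinar-like and 122.97 and 177 in trunk/ductal-like cells. Cenpf, a large kinetochore protein, was highest in mesothelium-like cells at 130 (109 to 154), above Cym-high epithelium at 85.03, knockout trunk/ductal-like cells at 81.4 and granulocyte/monocyte cells at 68.9. Mesenchyme-like cells held 38.3 and MHC class II-high myeloid cells 17.9. At 5000 UMIs per cell Cenpf was found in 15.4% of 65 mesothelium-like cells and 25% of 108 granulocyte/monocyte cells, 10 and 27 cells. Ndc80 and Nuf2, partners in the microtubule-binding complex, peaked in granulocyte/monocyte cells at 44.5 and 48.2. The motor Cenpe ranged from 2.81 (2 UMIs, endocrine-like) to 61.4 in granulocyte/monocyte cells.

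Among spindle genes Tubb4b, a β-tubulin that also serves microtubules outside mitosis, was highest in epithelial classes. Its levels were 497 CPM in knockout trunk/ductal-like, 489 in control acinar-like, 415 in knockout acinar-like and 407 in Cym-high cells. They were 365 in granulocyte/monocyte, 306 in control trunk/ductal-like, 301 in mesothelium-like, 274 in knockout endocrine-like and 246 in mesenchyme-like cells, and 187, 157 and 130 in the 3 macrophage and MHC class II-high classes. Endocrine-like cells were therefore not the lowest class for Tubb4b. Nusap1, which bundles spindle microtubules, separated classes far more, from 4.22 (3 UMIs) in knockout endocrine-like to 137 in granulocyte/monocyte cells, with 84.3 in Lyve1 macrophage-like, 82.5 in knockout trunk/ductal-like and 36.3 in control trunk/ductal-like cells. Tpx2, the activator of Aurora A, ranged from 9.84 to 78.3 and Tacc3, a spindle-stabilising partner of Aurora A, from 29.5 to 92.1. The motors Kif11, which separates spindle poles, and Kif20b reached 35.7 and 37.6 in granulocyte/monocyte cells, and the microtubule-binding Hmmr reached 62.0 there. Ckap2 and Psrc1, further microtubule-associated proteins, peaked in knockout trunk/ductal-like cells at 41.8 and 52.3.

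Cytokinesis genes were read in few UMIs. Kif23, a motor of the central spindle, was at 60.7 CPM in Cym-high epithelium (49.7 to 73.3) and 60.4 in knockout trunk/ductal-like cells, above 56.4 in granulocyte/monocyte, 49.0 in mesothelium-like, 29.4 and 21.1 in control and knockout acinar-like and 20.2 in control trunk/ductal-like cells. The first 3 of these did not differ beyond counting error. Ect2, which activates the small GTPase that drives the cleavage furrow, ranged from 8.44 in knockout endocrine-like to 30.7 in mesothelium-like cells. Anln (anillin) ranged from 2.02 (1 UMI) in control trunk/ductal-like to 25.1 in granulocyte/monocyte cells.

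Chromosome and nuclear envelope genes closed the list. Top2a, the topoisomerase that untangles sister DNA, stood at 214 CPM in granulocyte/monocyte, 170 in mesothelium-like, 145 in control acinar-like, 126 in Cym-high and 121 in knockout trunk/ductal-like cells. Top2a was lower in Lyve1 (117) and C1q (112) macrophage-like, mesenchyme-like (105), knockout acinar-like (101), MHC class II-high myeloid (55.4), control trunk/ductal-like (42.3) and knockout endocrine-like cells (18.3). Mki67, the proliferation antigen that coats mitotic chromosomes, stood at 82.1 in granulocyte/monocyte, 81.2 in control acinar-like and 78.4 in Lyve1 macrophage-like cells, which did not differ beyond counting error. It measured 61.5 in mesothelium-like, 53.9 in Cym-high, 52.4 and 51.1 in control and knockout trunk/ductal-like, 44.7 in knockout acinar-like, 42.5 in C1q macrophage-like, 35.9 in MHC class II-high myeloid, 35.4 in mesenchyme-like and 16.9 in knockout endocrine-like cells. Smc4, a condensin subunit, ranged from 52.0 to 244.

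Hmgb2, a DNA-bending protein, stood at 2294 CPM in granulocyte/monocyte cells (2221 to 2370), above 1169 in control acinar-like, 1078 in knockout trunk/ductal-like and 912 in knockout acinar-like cells. The macrophage and MHC class II-high classes held 856 (Lyve1), 768 (C1q) and 852, and knockout endocrine-like cells 252. Anp32e, a histone chaperone, spanned only 2.3-fold, from 87.9 in Cym-high epithelium to 202 in granulocyte/monocyte cells. Tmpo, an inner nuclear membrane protein, stood at 383 in granulocyte/monocyte cells and between 126 and 213 in the other 11 of the 12 classes. Lbr, the lamin B receptor, stood at 199 in granulocyte/monocyte and 122 in MHC class II-high myeloid cells. It measured 58.8 and 45.7 in control and knockout acinar-like, 57.05 in Lyve1 macrophage-like, 50.5 in C1q macrophage-like and 11.2 in knockout endocrine-like cells.

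Per cell and at equal depth, the members showed which classes held many cells rich in their transcripts. A limit of 10 member UMIs, set for this purpose, separated poorly, since 13 of 42 knockout endocrine-like cells (30.95%) passed it, so shares at 20 are given first. That weight was chosen after the values had been seen. At least 20 member UMIs were found in 27 of 48 control acinar-like cells (56.25%, 41.2 to 70.5), 55 of 108 granulocyte/monocyte cells (50.9%, 41.1 to 60.7), 47 of 93 knockout acinar-like cells (50.5%, 39.97 to 61.1) and 21 of 43 knockout trunk/ductal-like cells (48.8%, 33.3 to 64.5). These 4 shares did not differ beyond counting error. Lower shares were found in Cym-high epithelium (25 of 88, 28.4%), Lyve1 macrophage-like (70 of 250, 28.0%), mesothelium-like (17 of 65, 26.2%), control trunk/ductal-like (8 of 35, 22.9%, 10.4 to 40.1), C1q macrophage-like (42 of 228, 18.4%), MHC class II-high myeloid (25 of 146, 17.1%) and mesenchyme-like cells (21 of 142, 14.8%). No endocrine-like cell reached 20, with 0 of 42 in knockout, which allows up to 7.14% by the limit of 3 counts (Clopper-Pearson upper bound 8.41%), and 0 of 15 in control, which allows up to 20% (21.8%). The median of knockout endocrine-like cells was 8.5 member UMIs and their highest cell held 15.

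Medians followed another order than the highest cells. Median member UMIs per cell were 23 and 20 in control and knockout acinar-like, 20.5 in granulocyte/monocyte, 9 and 18 in control and knockout trunk/ductal-like, 12 in mesothelium-like, 11 in Cym-high, 10 in mesenchyme-like and Lyve1 macrophage-like, 8 in MHC class II-high myeloid and 7.5 in C1q macrophage-like cells. The highest single cell, with 128 member UMIs, was mesothelium-like, and the highest mesenchyme-like cell held 102, while no acinar-like cell exceeded 63. In granulocyte/monocyte cells the upper quartile began at 59.2 and the lower quartile ended at 8, and in knockout acinar-like cells these bounds were 26 and 11. Depth before the thinning differed between rich and poor cells in some classes. Control acinar-like cells with at least 20 had a median of 29763 UMIs against 16686 in those with under 10, granulocyte/monocyte cells 18114 against 9166, but knockout trunk/ductal-like cells 17848 against 18559. The part of total RNA content in these shares was not tested.

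**Figure D2:**
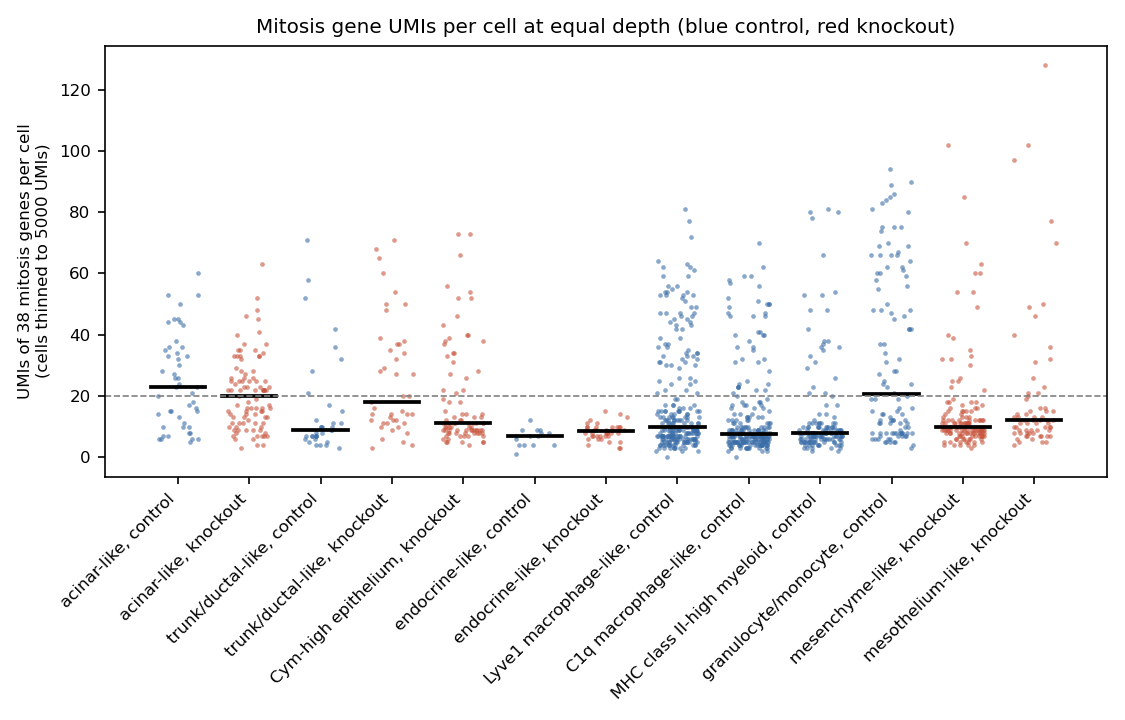
UMIs of the 38 genes in each cell (points) after thinning to 5000 UMIs, by class, in the control (blue) and knockout (red) library, with the class median as a bar and a dashed line at 20. Endocrine-like cells all lie under the line, both acinar-like groups are centred on it, and the single highest cell, at 128, is mesothelium-like.

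How far each gene followed the whole group was read from the 390 cells with at least 20 member UMIs and the 621 with under 10. The split uses the members themselves, so these ratios are a description of which genes carried it. Lbr, Anp32e and Tmpo differed least, with 3.17, 3.18 and 3.47 times more UMIs per cell in the rich cells. Cks1b (4.16), Cdk1 (4.61) and Cks2 (4.92) came next. Ratios were given only for members with more than 3 UMIs in the poor cells. Anp32e and Tmpo were also low within control immune classes (3.82 and 4.04), though Psrc1 (3.18) and Lbr (3.28) were lower. Within knockout mesenchyme- and mesothelium-like cells they gave 1.94 and 2.67, with Cks1b at 2.51 and Lbr at 4.78. Within epithelial classes Anln (1.78), Lbr and Cks1b (2.22 each) were lowest and Cdca8 (18.8) highest. Anln and Cdca8 each rested on 4 UMIs in the poor cells there. Over all classes Hmmr, Ckap2, Cenpe, Cenpf and Kif23 stood highest, at 22.3, 21.5, 18.9, 18.7 and 18.6, with 6 UMIs of Ckap2 in the poor cells. Among members with a ratio within control immune classes, Hmmr (21.9) and Cenpe (21) stayed highest. Cenpf (13.8) and Kif23 (13.6) lay below Ndc80 (18.7), Top2a (17.4) and Tpx2 (16.8) there. Kif11 (52 UMIs in rich and 2 in poor cells) and Anln (29 and 1) had too few UMIs for a ratio in these classes. Hmgb2 was found in 77.3% of the cells with under 10 member UMIs (1.54 UMIs per cell, against 9.95), so a single Hmgb2 UMI does not mark a cell rich in the others. Top2a was found in 10.1% of them and in 63.3% of the rich cells, and Mki67 in 6.76% and 47.7%.

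Top2a served as a single anchor, and the other 37 members were read in cells with and without a Top2a UMI. In granulocyte/monocyte cells the 44 cells with Top2a held a median of 19.5 other member genes and the 64 without held 7. In these cells Cdk1 was found in 75% against 25% and Ube2c in 77.3% against 31.2%. In control acinar-like cells the medians were 16 and 9, with Mki67 in 10 of 16 cells with Top2a and 3 of 32 without. In knockout acinar-like cells the medians were 12 and 10. There Mki67 was found in 6 of 25 cells with Top2a (24%) and 13 of 68 without (19.1%), and Cenpa in 28% and 39.7%, while Cdk1 was found in 72% and 41.2%. Trunk/ductal-like medians were 19 and 6 in control, where only 5 cells had a Top2a UMI, and 16.5 and 9 in knockout. The control medians were 14 and 6 in Lyve1 macrophage-like and 11 and 5 in C1q macrophage-like cells, and the knockout medians 18.5 and 7 in mesothelium-like, 9 and 7 in mesenchyme-like and 6 and 6 in endocrine-like cells.

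DNA replication genes, a list of 44 with the helicase subunits Mcm2 to Mcm7 and Pcna, mark the preceding S phase, and cells were sorted by at least 10 replication UMIs and at least 20 mitosis UMIs at 5000. Of 142 mesenchyme-like cells, 62 passed only the replication limit, 4 only the mitosis limit, 17 both and 59 neither. Of 108 granulocyte/monocyte cells, 14 passed replication alone, 30 mitosis alone, 25 both and 39 neither. Of 93 knockout acinar-like cells 35 passed both, 25 replication alone, 12 mitosis alone and 21 neither. The 48 control acinar-like cells gave 16, 12, 11 and 9. Trunk/ductal-like cells gave 3, 7, 5 and 20 in control and 12, 15, 9 and 7 in knockout. Of 42 knockout endocrine-like cells 5 passed replication alone and 37 neither. Summed replication levels were 2514 CPM in granulocyte/monocyte and 2796 in mesenchyme-like cells, while the mitosis sums of the same classes were 7796 and 3347.

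**Figure D3:**
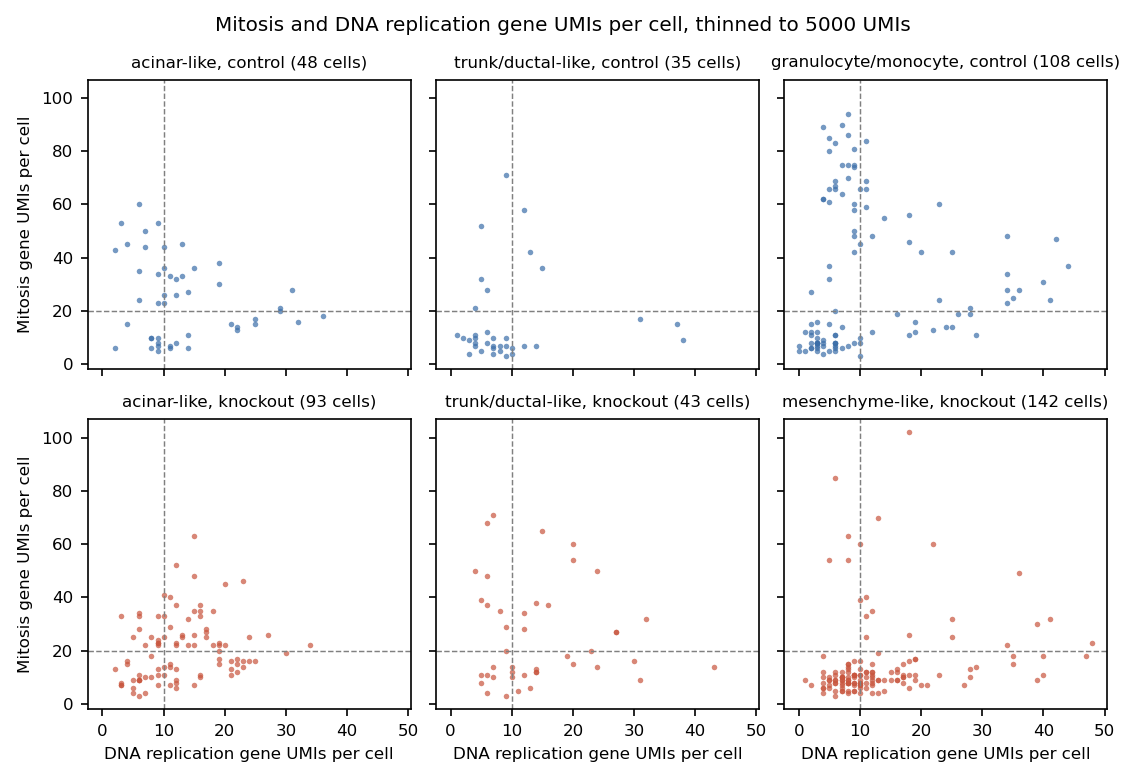
UMIs of 38 mitosis genes (vertical axis) against UMIs of 44 replication genes (horizontal axis) in each cell thinned to 5000 UMIs, with dashed lines at 20 and 10, in 6 class and library combinations. In control granulocyte/monocyte cells many points lie high on the left (30 cells), and in knockout mesenchyme-like cells most points beyond the vertical line lie low (62 cells).

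Between the libraries, acinar-like cells held somewhat less of most members in the knockout. All 38 genes had at least 20 UMIs over both libraries and were counted. Of these, 32 stood below 1 and 6 above, but only 4 were at least 1.5-fold lower and 0 at least 1.5-fold higher. Over all 9538 genes counted in this class, 4477 stood below 1 and 5061 above. Of them 14.5% were at least 1.5-fold higher and 13% at least 1.5-fold lower, so 4 of 38 lies near the background share. The median log2 ratio of the members was -0.25, against 0.03 over all genes. Mki67 stood at 81.2 CPM in control (105 UMIs) and 44.7 in knockout (131 UMIs), a ratio of 0.550 (0.422 to 0.718). Ube2c stood at 424 and 267, a ratio of 0.631 (0.565 to 0.705). Cenpe stood at 33.2 and 21.1, a ratio of 0.636 (0.424 to 0.961), and Anln at 16.2 and 8.86, a ratio of 0.546 whose interval of 0.295 to 1.02 holds 1. Just inside the 1.5-fold limit lay Cdc20 at 0.676, Top2a at 0.697 and Aurka at 0.698, with intervals that exclude 1. Cks1b (1.01, 0.905 to 1.137), Tmpo (1.03, 0.878 to 1.21) and Kif11 (0.992, 0.603 to 1.68) lay closest to 1. By role the medians ran from -0.56 for the 3 genes of the anaphase-promoting group and -0.48 for cytokinesis to -0.15 for kinases and cyclins.

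Other measures moved with this comparison. The 8 shared myeloid markers summed to 2218 CPM in control and 339 in knockout acinar-like cells, all 8 at least 1.5-fold lower and none at 0, with 1130 to 3210 CPM over control cells and 0 to 1160 over knockout cells. Of 15 mesenchyme markers 13 were counted and all 13 were higher, with sums of 159 and 835, and Pdgfra, Nkx2-5 and Acta2 were at 0 in control. Acinar markers summed to 44685 CPM in control and 33948 in knockout (8 of 19 counted lower, 2 higher), trunk/ductal markers to 3268 and 4187 (6 of 14 higher) and endocrine markers to 476 and 822 (5 of 17 higher, 2 lower). Median depth was 23318 and 31391 UMIs per cell. The part of these in the ratios was not tested.

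Trunk/ductal-like cells went the other way. Of the 36 members with at least 20 UMIs (Ttk with 14 and 1 and Anln with 17 and 1 UMIs were not counted), 18 were at least 1.5-fold higher in the knockout and 0 lower. Over the 7199 genes counted, 13.6% were higher and 12.6% lower by that limit. The median log2 ratio was 0.64, against 0.04 over all genes. Control cells numbered 35 and held 1852 member UMIs, so single ratios are wide. Top2a stood at 42.3 CPM in control (21 UMIs) and 121 in knockout (104 UMIs), a ratio of 2.86 (1.77 to 4.81). Tpx2 stood at 22.2 and 77.9, a ratio of 3.51 (1.84 to 7.37), and Kif23 at 20.2 and 60.4, a ratio of 2.998 (1.51 to 6.62). Kif20b, with 2 control UMIs, gave 6.63 (1.64 to 58.0). Cdca8 gave 2.31 (1.56 to 3.51), Nusap1 2.27, Psrc1 2.00, Cenpf 1.92, Aurkb 1.87, Ccnb1 1.65, Tubb4b 1.62 and Cks2 1.62, each with an interval above 1. Cenpe (2.05), Ckap2 (1.89), Lbr (1.86), Ect2 (1.81), Aurka (1.73) and Hmmr (1.73) also passed the limit, with intervals that hold 1.

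Members just under the limit were Cdc20 at 1.49 and Cdk1 at 1.48. Mki67 stood at 52.4 and 51.1 CPM (ratio 0.976, 0.588 to 1.65). By role the calls were 7 of 9 spindle genes, 2 of 2 counted cytokinesis genes, 2 of 3 of the passenger complex and 0 of 3 in the anaphase-promoting group. The share of cells with at least 20 member UMIs was 22.9% in control and 48.8% in knockout, with intervals of 10.4 to 40.1 and 33.3 to 64.5 that overlap. When only those 8 and 21 cells were compared, an alternative chosen after seeing the data, the median log2 ratio was -0.27 and 3 members were at least 1.5-fold higher. Leaving out the 5 cells with the most member UMIs before thinning in each library, 5 of only 35 control cells, gave 1.47. The shared myeloid markers summed to 2234 and 343 CPM in control and knockout trunk/ductal-like cells, with 7 of 8 counted and all 7 lower. The mesenchyme markers summed to 776 and 1522, with 8 of 9 counted higher and 9 of 15 at 0 in control. Acinar markers summed to 3729 and 6226, and median depth was 12921 and 18287. Endocrine markers summed to 714 CPM in control and 873 in knockout (4 of 10 counted higher, 3 lower). Their median cell stood at 305 in control and 849 in knockout, and their highest cell at 5330 and 2040. The part of these in the result was not tested.

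**Figure D4:**
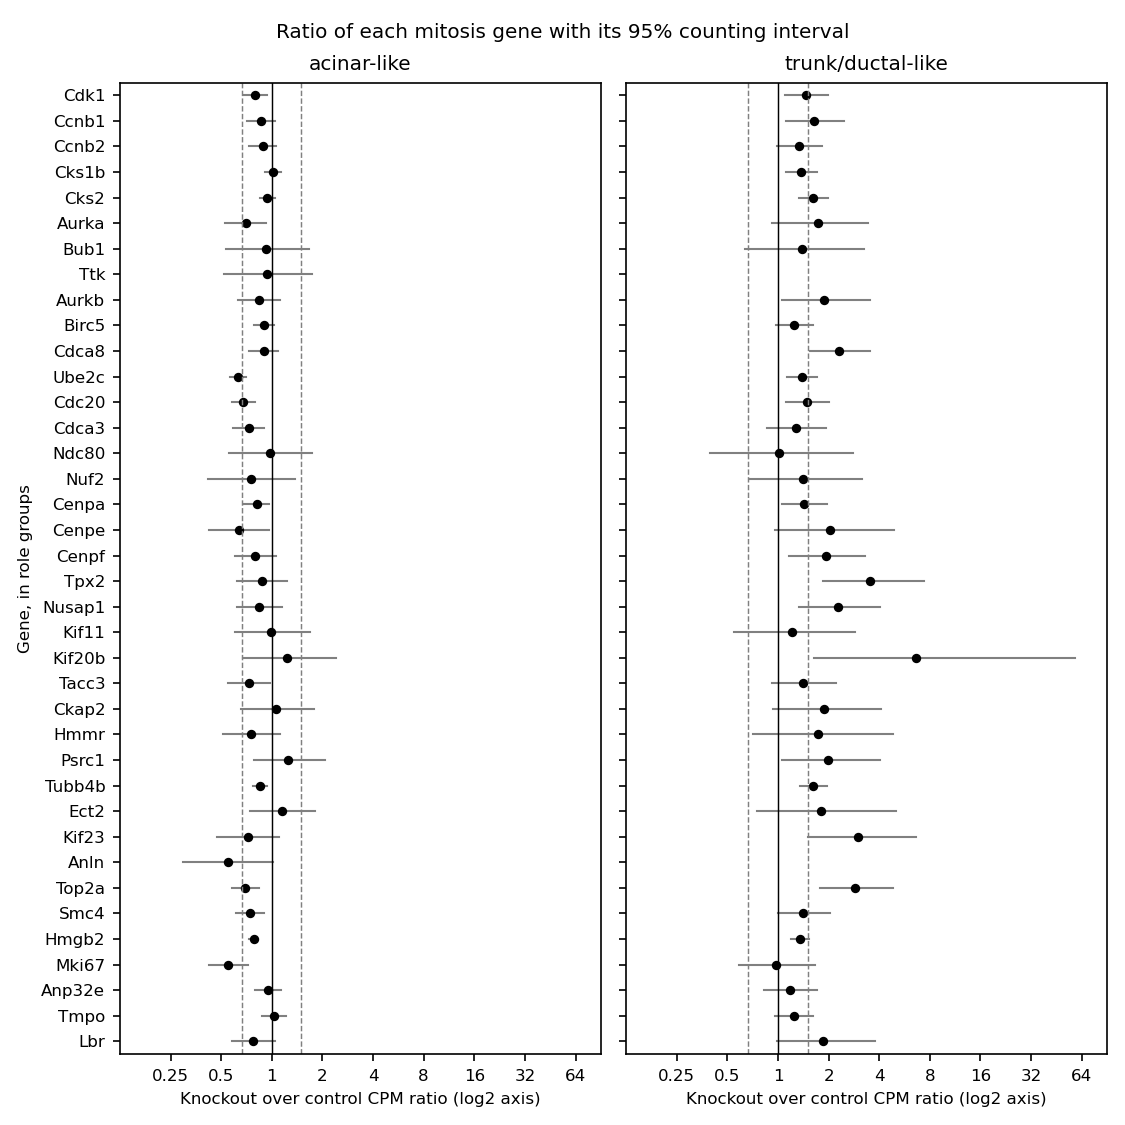
Knockout over control ratio of CPM for each gene (points) with its 95% counting interval (lines) on log2 axes, in acinar-like (left) and trunk/ductal-like cells (right), with dashed lines at 1.5-fold in both directions. Most acinar-like points lie left of 1, with 4 past the lower line, and most trunk/ductal-like points lie right of it, with 18 past the upper line. Ttk and Anln had too few UMIs in trunk/ductal-like cells and are not drawn there.

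Both comparisons use the same 2 libraries, with the sort and depth that belong to each, and the difference between the classes was not tested.

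Within the control library, 2 clusters of Lyve1 macrophage-like cells differed in nearly every member. Clusters were ordered by their member level after it had been seen, so the direction is a matter of choice and only the size is described. Cluster 1 (163 cells) held 5426 CPM of the members and cluster 5 (113 cells) 1774. In cluster 1, 65 of 143 cells (45.5%) had at least 20 member UMIs, and in cluster 5 this was 5 of 107 (4.67%). Of the 38 genes 37 were at least 1.5-fold higher in cluster 1, with a median log2 ratio of 1.83, against 14.4% higher and 9.64% lower among all 8707 genes. Ccnb1 stood at 109 and 21.3 CPM (5.15-fold), Nusap1 at 125 and 22.1 (5.66), Aurka at 76.7 and 14.2 (5.41), Top2a at 167 and 40.2 (4.16), Mki67 at 111 and 28.4 (3.91) and Cdk1 at 219 and 71.7 (3.06). Lbr alone stayed under the limit, at 63.9 and 46.5 (1.38, 1.00 to 1.91). All 50 counted genes of a list of 51 other mitosis genes and 40 of 43 counted replication genes were also higher, the latter with a median of 1.04. Hemoglobin genes led cluster 1. Its 9 erythroid markers summed to 5234 CPM against 58.3 in cluster 5, with a median cell at 0 and a highest cell at 349000 CPM, and Slc4a1 and Ermap at 0. The top 10 genes of cluster 1 held 4 Lyve1 macrophage and 4 erythroid markers, and it scored 0.61 for Lyve1 and 0.594 for C1q macrophage markers. Lyve1 macrophage markers summed to 8777 CPM in cluster 1 and 14355 in cluster 5 (10 of 11 lower). C1q macrophage markers summed to 23470 and 32105 (2 of 11 lower), and endocrine markers to 515 and 265 (7 of 12 counted higher, 1 lower). The part of erythroid transcripts or of these markers in the difference was not tested.

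The 2 clusters of C1q macrophage-like cells were ordered the same way and differed less. Cluster 2 (152 cells) held 3692 CPM and cluster 6 (98 cells) 2261, with at least 20 member UMIs in 33 of 140 (23.6%) and 9 of 88 cells (10.2%). Of 36 counted members 24 were at least 1.5-fold higher in cluster 2 and 0 lower (median 0.69), against 12.5% higher and 12.7% lower among 8489 genes. Tpx2 differed by 2.32-fold, Aurka by 2.16, Ccnb2 by 2.12, Ccnb1 by 1.97 and Hmgb2 by 1.81, while Mki67 (1.48, 0.992 to 2.25), Nuf2 (1.02) and Ndc80 (1.07) had intervals that hold 1. Of 43 replication genes 5 were higher and 5 lower by that limit, with 29 above 1 and 14 below (median log2 ratio 0.19). Other markers moved with the clusters. Ly6c2 monocyte markers summed to 1433 CPM in cluster 2 and 439 in cluster 6, dendritic markers to 760 and 350 (4 of 6 counted higher), and Lyve1 macrophage markers to 2320 and 6664 (7 of 11 lower). C1q macrophage markers summed to 28873 and 40162, and 1 of the top 10 genes of cluster 2 was a C1q macrophage marker. The part of these in the difference was not tested.

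Among the other control immune classes, all 38 members were at least 1.5-fold higher in granulocyte/monocyte than in MHC class II-high myeloid cells (median 1.45), against 11.1% higher and 10.5% lower among 8635 genes. This pair and those that follow were chosen after the levels had been seen. The ratios ran from 1.56 for Anp32e to 4.52 for Hmmr, with 4.48 for Cenpe, 3.86 for Top2a, 3.64 for Ccnb1 and 2.69 for Hmgb2. Replication genes were higher in 28 of 44. Immune class names and values depended on the clustering, and with cell cycle genes kept in it the cells named granulocyte/monocyte had at least 10 member UMIs in 30% in place of 72.2% and those named MHC class II-high myeloid in 97.0% in place of 34.9%.

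In the knockout library, mesothelium-like cells held more of several members than mesenchyme-like cells. Of 38 genes 15 were at least 1.5-fold higher and 0 lower (median 0.51), against 13.9% and 17% among 9715 genes. Cenpf differed most, at 130 and 38.3 CPM (3.38, 2.50 to 4.61), then Cdc20 at 177 and 76.1 (2.32), Hmmr at 39.4 and 17.4 (2.26), Ect2 at 30.7 and 14.5 (2.12) and Aurka at 62.5 and 30.2 (2.07). Tmpo (0.952) and Cks1b (1.13) were close to level, and replication genes gave 6 higher of 44. Mesothelium-like cells held 8789 CPM of mesenchyme markers, against 15412 in mesenchyme-like cells. Cdkn1c, an inhibitor of cyclin-dependent kinases, stood at 4893 CPM in mesenchyme-like, 1262 in mesothelium-like and 703 in Cym-high cells.

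Among knockout epithelial classes, trunk/ductal-like cells exceeded Cym-high epithelium by at least 1.5-fold in 11 of 38 members and in none the other way (median 0.46), against 11.8% and 17.3% among 9327 genes. Psrc1 (2.49, 1.58 to 3.96), Tpx2 (2.25), Nusap1 (1.99), Cdc20 (1.71), Hmgb2 (1.67) and Ube2c (1.65) were among them, while Top2a (0.960), Cenpf (0.957), Kif23 (0.996) and Mki67 (0.9496) had intervals that hold 1. Acinar-like cells exceeded endocrine-like cells in 35 of 38 (median 1.60), against 16.9% higher and 40.8% lower among 9598 genes, whose own median was -0.36. Nusap1 stood at 43.0 and 4.22 CPM there (10.2, 3.41 to 50.05, 3 endocrine UMIs), Top2a at 101 and 18.3 (5.54) and Aurkb at 50.5 and 8.44 (5.98). Tmpo (1.30), Anp32e (1.40) and Tacc3 (1.49) stayed under the limit. Cdkn1a, another such inhibitor, stood at 769 CPM in knockout and 596 in control endocrine-like cells and at no more than 219 in the other classes.

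Further genes of the cycle were read from fixed lists in the same library comparisons. Over all genes, 14.5% were at least 1.5-fold higher and 13% lower in acinar-like cells, and 13.6% and 12.6% in trunk/ductal-like cells. These shares are the background for every list count in this and the following paragraphs. The acinar-like counts of the anaphase-promoting complex and replication lists do not exceed them. Of 51 other mitosis genes, 0 were higher and 13 lower in acinar-like cells, and of 40 counted in trunk/ductal-like cells 27 were higher and 0 lower. Stmn1, a microtubule-destabilising protein, stood at 554 and 804 CPM in control and knockout acinar-like cells (1.45) and 514 and 903 in trunk/ductal-like cells (1.76). Bub3, of the spindle checkpoint, gave 0.849 and 1.15, and the kinetochore gene Spc24 0.858 and 2.09 (1.502 to 2.97). The largest ratios past the limit were Aspm at 0.279 (0.123 to 0.604) and the separase gene Espl1 at 0.413 in acinar-like cells, and Melk at 4.47 (1.58 to 17.4) and, at 3.84 each on 3 control UMIs, Ckap5 and Cdc25c in trunk/ductal-like cells. The core subunits and regulators of the anaphase-promoting complex gave 2 higher and 1 lower of 16 in acinar-like and 3 higher and 0 lower of 15 in trunk/ductal-like cells. Of these Anapc13 (1.17 and 1.03), Anapc5 (1.18 and 1.21) and Anapc11 (1.07 and 0.951) had the most UMIs. Past the limit lay Anapc7 (1.68), Anapc4 (1.56) and Cdc27 (0.627) in acinar-like cells, and Anapc16 (1.69), Fbxo5 (1.68) and Cdc23 (1.55) in trunk/ductal-like cells.

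Replication genes gave 4 higher and 2 lower of 44 in acinar-like cells and 17 higher and 0 lower of 39 in trunk/ductal-like cells. Slbp, which binds histone mRNA, gave 1.16 and 1.51, Pcna, the polymerase clamp, 1.18 and 1.19, and Tyms, which makes thymidylate, 1.09 and 1.77. The helicase subunit Mcm7 (1.69, 1.36 to 2.12) and Pold3 (1.51) were the largest in acinar-like cells, and Pola1 (0.556) and Atad2 (0.578) the smallest. In trunk/ductal-like cells the nuclease gene Exo1 (6.05, 2 control UMIs) and Cdc45 (3.65, 1.07 to 19.3) were the largest. Regulators of the programme were read thinly. Of 13, 9 were counted in acinar-like cells, with Lin9 higher (2.31, 0.781 to 9.28) and Rbl1 (0.603) and Lin54 (0.641) lower, all with intervals that hold 1. Of 5 counted in trunk/ductal-like cells E2f1 (2.14) and Lin37 (1.57) were higher, with intervals that hold 1, and E2f4 gave 0.964 and 1.28. Foxm1 stood at 27.6 CPM in granulocyte/monocyte, 28.1 in Lyve1 macrophage-like cluster 1 and 4.73 in cluster 5, and at 12.4 and 10.6 in control and knockout acinar-like cells.

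Genes of cycle exit gave 2 higher and 3 lower of 11 in acinar-like cells and 2 higher and 0 lower of 9 in trunk/ductal-like cells. In acinar-like cells Cdkn1c measured 151 CPM in the control and 393 in the knockout library (2.61, 2.24 to 3.05). In trunk/ductal-like cells it measured 564 and 744 (1.32). Cdkn1c was also higher in the knockout library in granulocyte/monocyte cells (23.2 and 235 CPM, 23 knockout cells). MHC class II-high myeloid cells held 17.9 and 326 (10 knockout cells), and endocrine-like cells 164 and 454. The part of such a difference between the libraries in the acinar-like ratio was not tested. Btg2, an antiproliferative gene, gave 1.60 (1.40 to 1.83) and 1.12, and Btg1 0.869 and 0.996. Cdkn1b, another inhibitor, gave 0.375 (0.184 to 0.753) and Cdkn2c 0.501 in acinar-like cells. Ccng1 gave 0.571 in acinar-like and 3.29 (1.46 to 8.72) in trunk/ductal-like cells, where Ccng2 gave 1.73.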

How the data were processed

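Single cells of 2 libraries were read by 10x 3' RNA-seq, and the 2 deposited tables hold whole-number UMI counts per gene and cell. Per the submitters' processing notes, Cell Ranger 2.0.0, Seurat 2.0, DESeq2 1.14.1 and the genome build mm10 were used, and how each was applied is not given in the sources used here. The labels list 2 sequencing runs per genotype, which the count tables do not separate.

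Gene names and positions came from GENCODE M21. Cells needed 500 genes or more and no more than 10% mitochondrial UMIs, and doublets marked by Scrublet were removed (0.432% and 1.6%). Both libraries were clustered together in scanpy 1.11.5 (2000 variable genes, 30 components, 15 neighbours, Leiden resolution 1, leidenalg 0.10.2), with 276 cell cycle genes left out. Levels were summed counts over summed totals. Cells under 5000 UMIs were left out of values per cell. Intervals are exact Poisson, conditional (ratios) or Clopper-Pearson (shares) at 95%, from scipy 1.17.1. Ratios needed 20 UMIs over both groups and were called at 1.5-fold. Scaling factors came from edgeR 4.0.16 and DESeq2 1.42.0, used for no test. The ratio and thinning code was tested on simulated data.

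The members and gene lists were chosen with earlier results of these data known. All 38 members are named. Values are given for the 2 members of each role group with the most UMIs and for Mki67, Top2a, Cdk1, Ccnb1 and Aurka. For several of these only some of the classes are printed, such as the lowest and the highest. Every member past 1.5-fold between the libraries is also given, some as a ratio alone. From other lists the text names the 3 genes with the most UMIs and the 2 largest ratios each way. The random draw was changed to 1 seed per cell after values had been seen.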

Additional observations from a re-analysis of the deposited data

Results flagged for a closer look

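Of 36 members counted in both comparisons, 29 had a knockout over control ratio below 1 in acinar-like and above 1 in trunk/ductal-like cells. Over all genes, 4477 of 9538 counted stood below 1 in acinar-like cells and 3820 of 7199 above 1 in trunk/ductal-like cells. The share of all genes that did both was not counted, so the 29 have no background of their own. Cenpe, the kinetochore motor, was among the 29. Its knockout over control ratio was 0.6358 in acinar-like cells, with an interval of 0.424 to 0.961 (62 knockout and 43 control UMIs). In trunk/ductal-like cells it was 2.05, with an interval of 0.956 to 4.88 that holds 1 (32 and 9 UMIs). It is listed because it passed the 1.5-fold limit both ways, and the difference between the classes was not tested.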

How the results depend on the processing

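No paired analysis was possible because each genotype is 1 library and its 2 sequencing runs cannot be separated in the tables. The share of cells past the limit depended on the limit. At 5 member UMIs it was 100% and 96.77% in control and knockout acinar-like cells and 88.57% and 95.35% in trunk/ductal-like cells, at 10 it was 81.25%, 81.72%, 48.57% and 86.05%, and at 20 it was 56.25%, 50.54%, 22.86% and 48.84%. The acinar-like median log2 ratio lay between -0.285 and -0.107 over 17 alternatives, and its count of lower members was 0 at a 2-fold limit. The trunk/ductal-like median was 1.47 without the 5 cells with the most member UMIs and -0.268 among only the cells with at least 20, where 3 members were higher and 5 lower, and at a 2-fold limit 7 were higher. The selection of cells by member UMIs uses the members themselves, and the cause of the change was not tested. The other alternatives left these 2 results on the same side. Clustering each library alone gave no control trunk/ductal-like class, so that alternative has no value there. Immune classes changed with the clustering: with cell cycle genes kept, the share with at least 10 member UMIs went from 52.8% to 20% in Lyve1 and from 36.4% to 24.06% in C1q macrophage-like cells. Without Hmgb2, Tubb4b, Tmpo, Lbr, Anp32e, Cks1b and Cks2, chosen after seeing the data as genes also used outside mitosis, the sums were 2708 and 2091 CPM in control and knockout acinar-like and 1800 and 2862 in trunk/ductal-like cells. Depth limits the trunk/ductal-like ratios, since 35 control cells gave 1852 member UMIs.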
